A study of Mus musculus with 6 samples.

Results

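DNA replication and G1/S genes were followed across 6 RNA-seq libraries of mouse cells with and without the telomere protein TRF2. The set holds 38 genes, chosen by name for their role in copying the genome or in the step from G1 into S phase, and not by a rule on measured values, although earlier results of these data were known when it was chosen. All 38 were found among the 22600 genes of the deposited table, each in 1 row, and all 38 passed the filter on low counts that left 15535 genes for testing.

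In mouse cells, as in other animals, each replication origin is licensed in G1 when the origin recognition complex, Cdc6 and Cdt1 load the MCM ring onto DNA. In S phase the kinase Cdc7 with Dbf4, together with cyclin-dependent kinases, turns that ring into an active helicase by adding Cdc45 and GINS, and polymerases, the clamp PCNA and its loader then copy both strands. Transcription of many of these genes is driven by E2F factors once the retinoblastoma proteins are inactivated, and ES cells are known for a short G1 phase with high cyclin E.

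The 4 groups were differentiated cells derived from ES cells with OHT (1 library), the same cells without OHT (1 library), ES cells with OHT (2 libraries) and ES cells without OHT (2 libraries). The labels call the differentiated cells FLICs and do not spell the name out. All cells had a C57BL/6 background and were grown for 96 h. OHT, the usual short form of hydroxytamoxifen, was given for 3 days, and the labels list OHT-treated cells as TRF2-/- and untreated cells as wild-type. The labels do not name the recombinase or the allele behind the deletion, and they leave unsaid whether replicate libraries were grown as separate cultures. The p-values therefore cover the spread among these libraries, which may be technical. No group received OHT while keeping TRF2, so OHT itself and the loss of TRF2 cannot be told apart. In ES cells, mRNA of Trp53, which encodes p53, was also lower in both OHT-treated libraries, to unequal degrees (values below). Its part cannot be told apart from that of OHT or TRF2 either.

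The libraries held 23534551 to 43965309 counts. Terf2, which encodes TRF2, was at 0.114 CPM (counts scaled to the size of the library) in OHT-treated FLICs and 8.27 CPM in untreated FLICs. In ES cells it was at 0.281 and 0.392 CPM with OHT, against 18.3 and 19.5 CPM without, so the labels matched the targeted gene in every library. The 10 pluripotency markers examined summed to 97.6 and 152 CPM in FLICs with and without OHT, against 3864 to 4483 CPM in the ES cell libraries, and all 10 were called lower in FLICs. Of 12 fibroblast markers, 9 were called higher in FLICs without OHT, whereas Pdgfra and Thy1, which define many fibroblasts, were lower and Lum was too low to test. Endoderm markers were split, with 5 of 7 tested. Foxa2, Gata6 and Gata4 had log2 fold changes of 9.10, 6.75 and 3.49 in FLICs without OHT, and Sox17 and Sox7 of -6.46 and -4.20. The two-cell-like markers summed to 301 and 228 CPM in OHT-treated ES cells, against 14.5 and 14.6 CPM in untreated ES cells, and 12 of 13 were called higher. In bulk RNA, fewer cells in S phase and less RNA per cell cannot be told apart.

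The first comparison asked how the differentiated cells differ from ES cells. Without OHT, FLICs had less mRNA than ES cells for most licensing genes of the set and for the polymerase genes Pole and Pold1. They also had less for the ligase Lig1 and cyclin E1, and more for cyclin E2, the loader subunit Rfc3 and thymidylate synthase. Among the 38 genes, 3 were called higher in FLICs and 16 lower (edgeR quasi-likelihood test, Benjamini-Hochberg adjusted p under 0.05 over all genes tested). The same test called 54.9% of all genes, 26.2% higher and 28.7% lower. The share of the set called, 19 of 38, was thus near that of all genes, with 7.89% of the set higher and 42.1% lower. Among the 9114 genes that averaged at least 10 CPM, a background chosen after values were seen, 27.5% were higher and 26.3% lower. The median log2 fold change was -0.33 over the 38 genes and -0.11 over all genes tested. Summed over the set, mRNA stood at 6279 and 6702 CPM in FLICs with and without OHT, against 10219.8 and 8149 CPM in OHT-treated ES cells and 10733 and 9562 CPM in untreated ES cells, so every ES cell library was above both FLICs libraries. Each FLICs group had 1 library, so the spread in the test came from the ES cell pairs alone and the lone libraries were assumed to vary like them. Untreated FLICs also had less Trp53 and Cdkn1a mRNA than untreated ES cells (values below), and the part of these genes was not tested. Leaving out an untreated ES cell library lowered the number called: 8 genes (34.6% of all genes) without replicate 1 and 10 genes (34.8%) without replicate 2, with Ccne2 higher and Ccne1, Lig1, Orc1, Pole, Rfc1 and Rfc5 lower in both. Rfc3 and Tyms, called higher with all libraries, and Mcm3, Mcm4, Mcm5, Mcm7, Pold1 and Rrm2, called lower, were called in neither of these fits.

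With OHT in both cell types, the comparison drew on the other 3 libraries, although in the same fit. FLICs then had 5 genes called higher and 14 lower, where 57.7% of all genes were called, 28.4% higher and 29.3% lower. Among the 9114 more abundant genes the shares were 31.3% higher and 23.3% lower. The median was -0.37, against -0.07 over all genes. The 14 lower genes were all among the 16 lower without OHT (100% of the list with OHT and 87.5% of the list without), and the 3 genes higher without OHT were all among the 5 higher with it (100% of the list without). Mcm7 and Rfc1 were called only without OHT, and Prim2 and Rrm1 only with it. The difference between these 2 comparisons is the OHT response difference tested further on, and it was called for none of the 38 genes. Leaving out 1 untreated ES cell library gave 11 calls in this comparison whichever of the 2 was left out, where 44.1% of all genes were called without replicate 1 and 44.3% without replicate 2. Ccne2 and Rfc3 were called higher in both, and Prim2, Rrm1 and Tyms were called in neither.

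**Figure D1:**
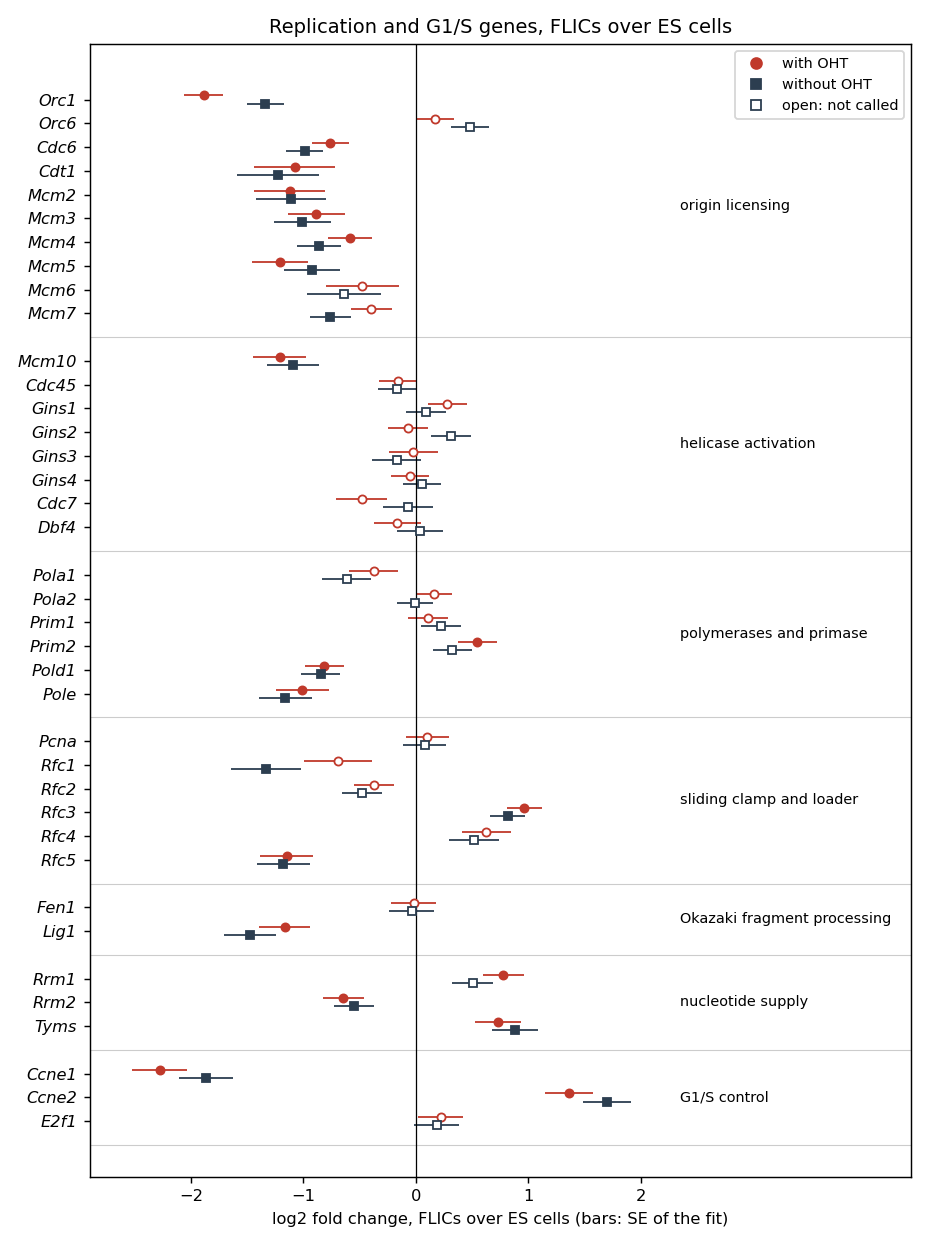
Fitted log2 fold changes of the 38 genes, FLICs over ES cells, with OHT (red circles, above) and without OHT (dark squares, below), by role; bars are standard errors of the fit and open symbols were not called. Licensing genes sit left of 0 apart from Orc6, and Ccne1 and Ccne2 lie at opposite ends, at -1.87 and 1.70 without OHT.

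Cyclin E1 and cyclin E2 are alternative partners of Cdk2 at the G1/S step, and they differed in opposite directions. In GRCm38, Ccne1 (ENSMUSG00000002068) lies at chr7:38097984-38107534 and Ccne2 (ENSMUSG00000028212) at chr4:11191351-11204779. Ccne1 was at 63.9 and 74.6 CPM in FLICs with and without OHT, against 339.7 and 279.9 CPM in OHT-treated ES cells and 300.3 and 245 CPM in untreated ES cells. Every FLICs value was below every ES cell value, with a log2 fold change of -2.28 with OHT (SE 0.24, adjusted p = 0.000769) and -1.87 without (SE 0.24, adjusted p = 0.00157). Ccne2 was at 76.0 and 82.7 CPM in FLICs with and without OHT, against 25.6 and 33.7 CPM in OHT-treated ES cells and 27.5 and 23.5 CPM in untreated ES cells. The cell types did not overlap here either, in the other direction, with log2 fold changes of 1.36 with OHT (SE 0.22, adjusted p = 0.00331) and 1.70 without (SE 0.21, adjusted p = 0.00151). Per deposited gene length, in TPM (counts per base of gene, scaled to the same sum in each library), the level of Ccne2 was 1.30 and 1.21 times that of Ccne1 in FLICs with and without OHT. In ES cells the ratio was 0.0828 and 0.132 with OHT and 0.100 and 0.105 without, so Ccne1 led in all 4 ES cell libraries and Ccne2 in both FLICs libraries. Ccne2 shares exon sequence with Ints8 on the opposite strand, and Ints8 had a log2 fold change of 0.17 in FLICs over ES cells without OHT (adjusted p = 0.517). E2f1, an activator of G1/S transcription, was at 73.3 and 75.6 CPM in FLICs, within 0.22 log2 units of ES cells in both fits and not called.

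Of the 10 licensing genes, 8 were lower in FLICs without OHT, none was higher, and the median was -0.96, where 28.7% of all genes were lower. The count fell to 2 (Cdc6 and Orc1) without untreated ES cell replicate 1 and to 3 (Cdt1, Mcm2 and Orc1) without replicate 2. With OHT, 7 were lower (29.3% of all genes), with a median of -0.82, and 4 (Cdt1, Mcm2, Mcm5 and Orc1) when either untreated replicate was left out. Their summed level was 2790.1 and 2968 CPM in FLICs with and without OHT, against 5749 and 4214 CPM in OHT-treated ES cells and 5815 and 5080.1 CPM in untreated ES cells. Orc1 (ENSMUSG00000028587, chr4:108579423-108614833) encodes the largest subunit of the origin recognition complex, whose protein level changes with the cell cycle in human cells. It was at 41.1 and 46.7 CPM in FLICs with and without OHT. It was at 154 and 150.3 CPM in OHT-treated ES cells and at 121 and 115 CPM in untreated ES cells. No FLICs value reached the ES cell range, and the log2 fold change was -1.89 with OHT (SE 0.17, adjusted p = 0.000437) and -1.34 without (SE 0.17, adjusted p = 0.00147). Orc6, another subunit, was the exception of the group, at 183 and 186 CPM in FLICs and 126 to 165 CPM in ES cells, and it was not called in either fit (adjusted p = 0.0527 without OHT).

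Cdt1 loads the MCM ring and is kept in check by geminin and by proteolysis. It was at 125 and 128 CPM in FLICs with and without OHT, against 331 and 198 CPM in OHT-treated ES cells and 343 and 257 CPM in untreated ES cells. The ES cell libraries differed among themselves, with replicate 2 lower in both conditions, yet each stayed above FLICs (log2 fold change -1.22 without OHT, SE 0.36, adjusted p = 0.0326). Cdc6, the loader ATPase, was at 54.4 and 56.5 CPM in FLICs and 89.5 to 115 CPM in ES cells, and was called lower in both fits.

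The 6 subunits of the MCM ring, the core of the replicative helicase, had log2 fold changes of -1.11 to -0.64 in FLICs without OHT. Of these, 5 were called lower, where 28.7% of all genes were lower. Without untreated ES cell replicate 1 none of the 6 was called, and without replicate 2 only Mcm2 was. Mcm2 was at 497 and 563 CPM in FLICs and 859 to 1353 CPM in ES cells, Mcm3 at 367 and 369 CPM against 574 to 793 CPM, and Mcm4 at 348 and 321 CPM against 476 to 594 CPM. Mcm5 was at 449 and 529 CPM in FLICs with and without OHT, against 1178 and 897 CPM in OHT-treated ES cells and 1094 and 915 CPM in untreated ES cells. FLICs lay below every ES cell library, with a log2 fold change of -1.21 with OHT (SE 0.25, adjusted p = 0.00889) and -0.92 without (SE 0.25, adjusted p = 0.0227). Mcm7 was at 272 and 288 CPM in FLICs, against 377 and 338 CPM in OHT-treated ES cells and 503 and 472 CPM in untreated ES cells. It was called lower without OHT (-0.76, SE 0.18, adjusted p = 0.0159) and missed the threshold with OHT (-0.40, SE 0.18, adjusted p = 0.106), where the ES cell values were themselves lower. Mcm6 was the subunit that passed in neither fit, at 454 and 480.4 CPM in FLICs, against 793 and 470.4 CPM in OHT-treated ES cells and 784 and 716 CPM in untreated ES cells. OHT-treated replicate 2 lay among the FLICs values and the other 3 ES cell libraries above them.

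E2F factors bind sites in the promoters of many licensing genes, so promoter windows of the set were searched for the letters TTTCCCGC and TTTGGCGC on both strands. RefSeq windows of GRCm38.p6, from 250 bases before to 50 bases after the start, were found for 30 of the 38 genes. Lig1, Mcm7, Fen1 and Cdc7 had more than 1 window. A match was present in at least 1 window for 10 of the 30 genes, 33.3%, against 1.8% of the 27025 genes in the table (10 of 35 windows, 28.6%, against 1.56% of all windows). The 10 were Cdc6, Cdt1, Mcm3, Mcm5, Mcm6, Mcm7, Gins3, Pola1, Pold1 and Rfc3. They comprised 6 of 14 matched genes that were lower in FLICs without OHT, 3 of 14 that were not called and 1 of 2 that were higher. For comparison, CCAAT was found for 17 of the 30 genes, 56.7%, against 41.1% of all genes, and TTTGAA, the letters of the cell cycle homology element, for 6 of the 30 genes, against 20.2% of all genes. The letters describe the windows and do not show binding.

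Windows are shown for the 4 genes with a match that were among the 6 largest changes of the set in a comparison. They let the match be seen in place. Each runs 5′ to 3′ along the strand of its gene, with the match in capitals. Mcm5 is on the plus strand at chr8:75109259-75109558, with the match starting at -149 relative to the start. Mcm7 is on the minus strand at chr5:138171834-138172133, with the match at -165. The other Mcm7 window, chr5:138171217-138171516, held no match and is not shown. Cdt1 is on the plus strand at chr8:122567765-122568064, with the match at 33, and Pold1 on the minus strand at chr7:44548766-44549065, with the match at 40, both downstream of the start.
Mcm5: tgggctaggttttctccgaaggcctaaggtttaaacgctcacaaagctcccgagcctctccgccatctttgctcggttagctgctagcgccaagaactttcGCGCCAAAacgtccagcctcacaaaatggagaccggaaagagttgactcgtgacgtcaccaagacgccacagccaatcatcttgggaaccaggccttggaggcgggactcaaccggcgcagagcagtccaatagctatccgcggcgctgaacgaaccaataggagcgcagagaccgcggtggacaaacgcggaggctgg
Mcm7: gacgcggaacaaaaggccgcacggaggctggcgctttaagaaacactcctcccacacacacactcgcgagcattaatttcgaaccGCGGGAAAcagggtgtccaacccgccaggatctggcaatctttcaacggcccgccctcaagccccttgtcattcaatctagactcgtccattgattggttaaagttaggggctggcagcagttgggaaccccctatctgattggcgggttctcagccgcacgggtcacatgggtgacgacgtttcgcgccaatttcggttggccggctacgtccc
Cdt1: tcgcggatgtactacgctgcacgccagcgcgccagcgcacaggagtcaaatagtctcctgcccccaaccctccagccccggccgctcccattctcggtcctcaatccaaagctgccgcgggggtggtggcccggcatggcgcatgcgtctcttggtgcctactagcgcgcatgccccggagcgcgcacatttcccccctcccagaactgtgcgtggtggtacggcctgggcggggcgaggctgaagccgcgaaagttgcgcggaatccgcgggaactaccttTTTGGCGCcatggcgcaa
Pold1: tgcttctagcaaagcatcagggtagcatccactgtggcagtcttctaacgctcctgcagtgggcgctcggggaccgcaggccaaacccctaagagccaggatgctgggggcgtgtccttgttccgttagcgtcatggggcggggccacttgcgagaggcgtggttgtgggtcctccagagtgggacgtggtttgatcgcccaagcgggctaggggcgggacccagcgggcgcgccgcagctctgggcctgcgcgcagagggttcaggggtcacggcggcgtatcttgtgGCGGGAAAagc
In Mcm5, Mcm7 and Pold1 the capitals are the reverse complement of the searched letters, and in Cdt1 they are the letters themselves. All 4 genes were lower in FLICs without OHT, and Mcm7 alone of the 4 was not called with OHT. The 4 were picked by size of change, so their direction does not tie a match to a lower level. Mcm6, which also held a match, was called in neither comparison.

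Of the 8 genes that turn the loaded ring into a working helicase, 12.5% were called with or without OHT. Of all genes, 54.9% were called without OHT and 57.7% with it. In both comparisons 1 of the 8 was lower in FLICs and none higher. That gene was Mcm10, which helps start unwinding at the activated origin, and without OHT it was not called when untreated ES cell replicate 1 was left out. It was at 119 and 137 CPM in FLICs with and without OHT, against 313 and 238 CPM in OHT-treated ES cells and 306 and 279 CPM in untreated ES cells. The cell types did not overlap, and the log2 fold change was -1.21 with OHT (SE 0.23, adjusted p = 0.00669) and -1.09 without (SE 0.23, adjusted p = 0.00995).

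The other 7 genes of helicase activation had fitted differences of -0.17 to 0.31 without OHT. Cdc45 and the 4 GINS genes encode the cofactors that complete the helicase, and their values in FLICs lay close to those in ES cells. Cdc45 was at 86.7 and 93.2 CPM in FLICs with and without OHT and 90.7 to 105 CPM in ES cells, and Gins1, Gins3 and Gins4 had log2 fold changes of 0.09, -0.17 and 0.06 without OHT. Gins2 was at 79.6 and 95.2 CPM in FLICs with and without OHT, against 80.8 and 86.9 CPM in OHT-treated ES cells and 82.8 and 70.5 CPM in untreated ES cells. These ranges overlapped, and the interval of its log2 fold change without OHT was -0.12 to 0.75. Cdc7, the kinase, was at 22.6 and 31.9 CPM in FLICs, against 27.1 and 36.2 CPM in OHT-treated ES cells and 33.6 and 33.7 CPM in untreated ES cells, and was called in neither fit. Its activator Dbf4 was at 308 and 313 CPM in FLICs and 304 to 387 CPM in ES cells.

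Polymerase alpha with primase lays the first primers, and its 4 subunits were not called without OHT (differences of -0.61 to 0.32). Pola1, the catalytic subunit, was at 97.0 and 103 CPM in FLICs with and without OHT and 109 to 164 CPM in ES cells, so the ranges did not overlap, with an adjusted p of 0.0561 without OHT. Pola2, the regulatory subunit, was at 114 and 119.5 CPM in FLICs and 99.9 to 125 CPM in ES cells. Prim1, the catalytic primase subunit, was at 108 and 126 CPM in FLICs with and without OHT, against 91.7 and 108 CPM in OHT-treated ES cells and 110.4 and 105 CPM in untreated ES cells. Prim2, the large primase subunit, was called higher in FLICs with OHT (log2 fold change 0.55, SE 0.18, adjusted p = 0.0398). The catalytic subunits of the 2 main replicative polymerases were both lower in FLICs. Pole, of polymerase epsilon on the leading strand, was at 88.5 and 99.7 CPM in FLICs with and without OHT, against 205 and 152 CPM in OHT-treated ES cells and 227 and 219 CPM in untreated ES cells. Pold1, of polymerase delta on the lagging strand, was at 94.1 and 115 CPM in FLICs with and without OHT, against 170.3 and 161 CPM in OHT-treated ES cells and 214 and 199 CPM in untreated ES cells. Neither gene overlapped between cell types, and without OHT the log2 fold change was -1.16 for Pole (SE 0.24, adjusted p = 0.00853) and -0.85 for Pold1 (SE 0.17, adjusted p = 0.00860).

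The clamp itself and its loader behaved unevenly. Pcna, which encodes the clamp, was at 335 and 351 CPM in FLICs and 288 to 355 CPM in ES cells, with an interval of -0.40 to 0.55 for the log2 fold change without OHT. Of the 5 loader genes, Rfc1 and Rfc5 were lower in FLICs without OHT, Rfc3 was higher, and Rfc2 and Rfc4 were not called. Rfc1 (ENSMUSG00000029191, chr5:65261850-65335670), the large subunit, was at 141 and 132 CPM in FLICs with and without OHT, against 279.7 and 177 CPM in OHT-treated ES cells and 349 and 318 CPM in untreated ES cells. All ES cell values were above FLICs, but OHT-treated replicate 2 was the closest, and the log2 fold change was -0.70 with OHT (SE 0.30, adjusted p = 0.0934) and -1.33 without (SE 0.31, adjusted p = 0.0139). Rfc3, a small subunit, was at 72.5 and 80.8 CPM in FLICs and 35.7 to 47.2 CPM in ES cells, with log2 fold changes of 0.96 with OHT (adjusted p = 0.00353) and 0.82 without (adjusted p = 0.00687). Rfc5 was at 40.5 and 47.0 CPM in FLICs and 75.8 to 110.1 CPM in ES cells. Rfc5 shares exon sequence on the opposite strand with Wsb2, which had a log2 fold change of 1.25 in FLICs without OHT. Whether reads of Wsb2 entered the count of Rfc5 was not tested.

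Of the 2 genes that finish Okazaki fragments, Lig1, the ligase that seals them, was lower in FLICs, and Fen1, the flap nuclease, was not called. Lig1 (ENSMUSG00000056394, chr7:13277283-13311433) was at 168 and 182 CPM in FLICs with and without OHT, against 421 and 334 CPM in OHT-treated ES cells and 539 and 473 CPM in untreated ES cells. FLICs lay well below all 4 ES cell libraries, with a log2 fold change of -1.17 with OHT (SE 0.23, adjusted p = 0.00695) and -1.47 without (SE 0.23, adjusted p = 0.00334). Fen1 was at 155 and 150.3 CPM in FLICs and 140.1 to 175 CPM in ES cells. Lig1 shares exon sequence with Zswim9 on the opposite strand, which had a log2 fold change of 0.50 without OHT (adjusted p = 0.229).

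The 3 genes of nucleotide supply were split. Tyms, which makes thymidylate, was at 118 and 126 CPM in FLICs with and without OHT, against 61.3 and 81.1 CPM in OHT-treated ES cells and 66.9 and 70.3 CPM in untreated ES cells. FLICs were above every ES cell library, by 0.73 log2 units with OHT (SE 0.21, adjusted p = 0.0265) and 0.88 without (SE 0.21, adjusted p = 0.0144). Rrm1, the large subunit of ribonucleotide reductase, was at 544 and 576 CPM in FLICs, against 335 and 299 CPM in OHT-treated ES cells and 434 and 379 CPM in untreated ES cells. It was called higher with OHT (0.78, SE 0.18, adjusted p = 0.0142) but not without (0.50, SE 0.19, adjusted p = 0.0623). Rrm2, the small subunit, went the other way, at 258 and 295 CPM in FLICs and 396 to 458 CPM in ES cells, and was called lower in both fits.

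**Figure D2:**
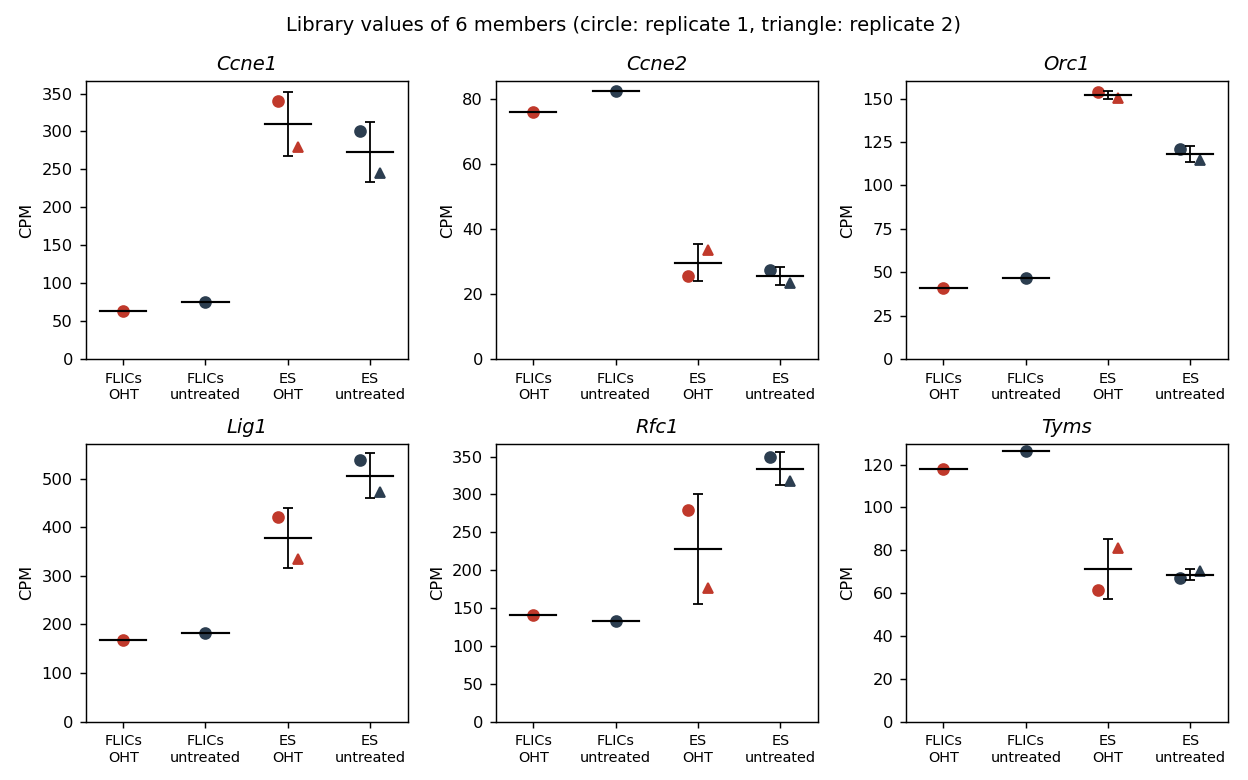
CPM of 6 genes in each library, with FLICs left of ES cells and OHT left of untreated; circles are replicate 1, triangles replicate 2, horizontal lines group means and bars the SD of the 2 ES cell libraries. Ccne1, Orc1, Lig1 and Rfc1 lie lower in FLICs and Ccne2 and Tyms higher, with no overlap between the cell types.

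Per-length levels let subunits of 1 complex be compared within a library, as a description. In the MCM ring, whose subunits assemble in equal numbers, the highest subunit was 1.62 and 1.95 times the lowest in TPM in FLICs with and without OHT, and 1.90 to 3.06 times in ES cells, with Mcm5 the highest in all 6 libraries. The GINS genes were less even, at 6.35 to 9.43 times over the 6 libraries, with Gins3 the lowest and Gins2 the highest in each. In the clamp loader, Rfc4 was the lowest in all 6 libraries, while Rfc3 was the highest in both FLICs libraries and Rfc5 or Rfc1 in the ES cell libraries. Rrm2 and Rrm1 were within 1.08 times of each other in FLICs, whereas Rrm2 was 2.07 to 2.60 times Rrm1 in ES cells. Cdc7 was 6.94 to 11.8 times below its activator Dbf4.

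**Figure D3:**
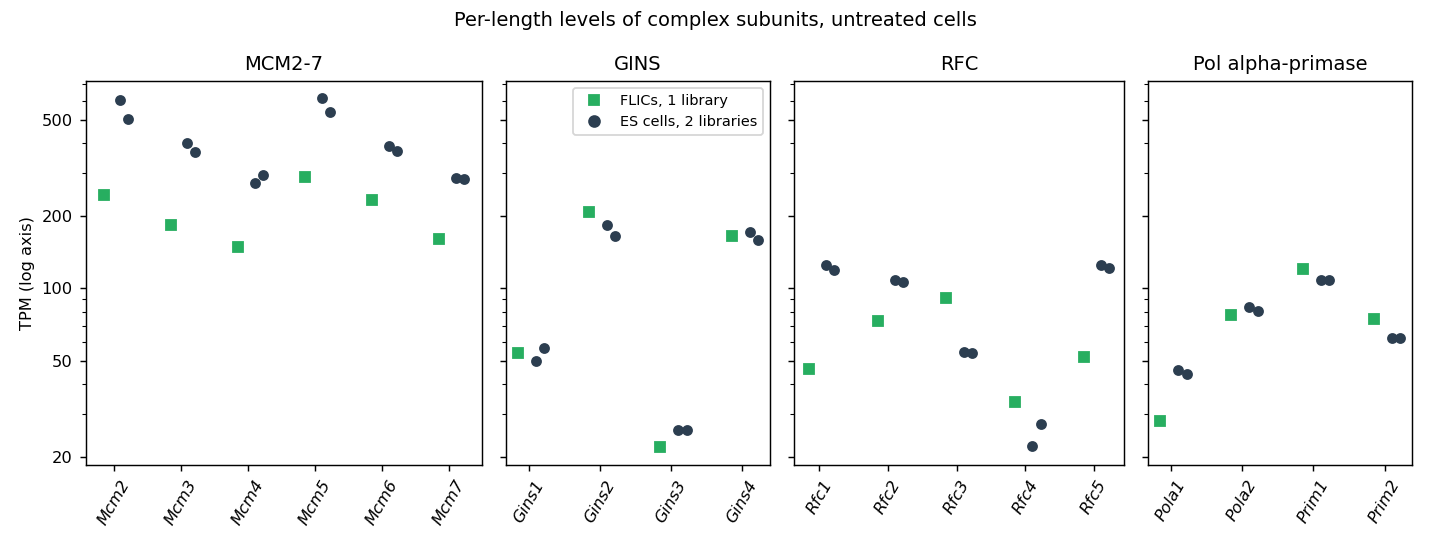
TPM (log axis) of the subunits of 4 complexes in untreated cells, with the FLICs library (green squares) left of the 2 ES cell libraries (dark circles). All 6 MCM subunits lie lower in FLICs, GINS values lie close together, and Rfc3 is the highest loader subunit in FLICs but not in ES cells.

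Genes around the set were read from lists of related pathways, without OHT. Of all genes, 54.9% were called in this comparison, 26.2% higher and 28.7% lower in FLICs. Of 35 other replication factors, 6 were higher and 15 lower in FLICs, with a median of -0.19. Ticrr, which brings Cdc45 to the ring, was at 40.0 and 53.4 CPM in FLICs with and without OHT, against 327 and 264 CPM in OHT-treated ES cells and 331 and 345 CPM in untreated ES cells, a log2 fold change of -2.66 without OHT (SE 0.23). Orc4, an origin recognition subunit, was higher by 1.40, and Pold4, the smallest subunit of polymerase delta, by 2.04. Of 18 nucleotide synthesis genes, 3 were higher, among them the thymidine kinase Tk1 (1.02), and 6 lower, among them Shmt1 (-1.94) and Cad (-1.53). Of 16 Rb and E2F genes, 6 were higher, led by the pocket protein Rbl2 (2.04), and 4 lower, led by E2f2 (-1.59). Of 11 other G1 and S cyclins, kinases and partners, 4 were higher, led by cyclin D2 (Ccnd2, 4.42), and 3 lower, led by cyclin D3 (Ccnd3, -1.72). The medians were -0.58 for the nucleotide synthesis list, -0.07 for Rb and E2F and -0.04 for the cyclins and kinases.

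All 7 CDK inhibitor genes were called between the cell types without OHT, 5 higher and 2 lower in FLICs. Of all genes, 54.9% were called. Cdkn2a, which encodes p16 and p19ARF, was at 665 and 580.3 CPM in FLICs with and without OHT, against 40.7 and 42.5 CPM in OHT-treated ES cells and 38.9 and 36.0 CPM in untreated ES cells. Cdkn1a, the p53 target that encodes p21, was at 3.29 and 1.79 CPM in FLICs, against 19.1 and 32.9 CPM in OHT-treated ES cells and 37.4 and 37.3 CPM in untreated ES cells. Trp53, which encodes p53, was at 7.82 and 8.98 CPM in FLICs, against 8.39 and 83.1 CPM in OHT-treated ES cells and 299 and 345 CPM in untreated ES cells. Untreated FLICs and untreated ES cells thus also differed in Trp53 and Cdkn1a. The part of these genes in the differences of the set between cell types was not tested. Of 28 mitotic genes, 3 were higher and 4 lower in FLICs without OHT (25% called), with a median of -0.18. Their summed level was 6306 and 6593 CPM in FLICs with and without OHT, against 7605 and 6324 CPM in OHT-treated ES cells and 7964 and 7662 CPM in untreated ES cells.

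The next comparison asked what OHT and the loss of TRF2 did to the set within each cell type. In ES cells none of the 38 genes was called by edgeR, where 0.534% of all genes were (81 of them higher, 0.521%, and 2 lower, 0.0129%). DESeq2 also called 0 of the 38. At an unadjusted p under 0.05, 2 of the 38 passed, Orc1 higher and Mcm7 lower, against 18.3% of all genes. The median log2 fold change was -0.12 over the set and -0.01 over all genes, with 27 genes below 0 and 11 above. Below 0 were 71.1% of the set and 50.7% of all genes. A shift of similar size lay between the untreated ES cell libraries alone, replicate 2 minus replicate 1. Its median over the set was -0.11 in log2(CPM + 1), with 81.6% of the set below 0. The OHT-treated and untreated libraries did not overlap for 14 genes that were lower with OHT, 36.8% of the set against 27.6% of all genes, and for 2 that were higher, Orc1 and Orc6, against 25.2% of all genes.

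The 6 genes with the largest differences in ES cells were Rfc1, Mcm7, Lig1, Orc1, Rrm1 and Pole, whose library values are given above. Rfc1 averaged 228 ± 72.8 CPM with OHT and 334 ± 21.9 CPM without (SD, n = 2 each), a log2 difference of -0.55 with an interval of -1.14 to 0.04. Mcm7 averaged 358 ± 28.2 CPM with OHT and 488 ± 21.9 CPM without (SD, n = 2 each), a difference of -0.45 with an interval of -0.81 to -0.09 (edgeR adjusted p = 0.203). Lig1 averaged 378 ± 62.0 CPM with OHT and 506 ± 46.5 CPM without (SD, n = 2 each), a difference of -0.42 with an interval of -0.86 to 0.01. These 3 genes of the loader, the ring and the ligase were each lower in both OHT-treated libraries than in either untreated one. Orc1 averaged 152 ± 2.41 CPM with OHT and 118 ± 4.54 CPM without (SD, n = 2 each), a difference of 0.37 with an interval of 0.05 to 0.68 (edgeR adjusted p = 0.230). Rrm1 and Pole differed by -0.36 (interval -0.74 to 0.02) and -0.32 (interval -0.77 to 0.13). All other genes of the set lay between -0.32 and 0.29, with Ccne1 at 0.19, Ccne2 at 0.22 and E2f1 at -0.08. By role, the medians were -0.28 for polymerases and primase, whose 6 genes were all below 0 (-0.32 to -0.11), -0.20 for the clamp and its loader, -0.17 for licensing, -0.08 for helicase activation and 0.19 for the 3 G1/S genes. Related lists had medians of -0.19 to 0.04, with -0.18 for other replication factors, -0.18 for nucleotide synthesis and -0.14 for mitosis. Among their genes with the smallest p-values, the CDK inhibitor gene Cdkn1c was at 1.28 and the pocket protein gene Rbl1 at -0.60. Cad, the first enzyme complex of pyrimidine synthesis, was at -0.79 and Ccnd2 at 1.74. None of them was called (edgeR adjusted p = 0.115, 0.150, 0.174 and 0.207).

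**Figure D4:**
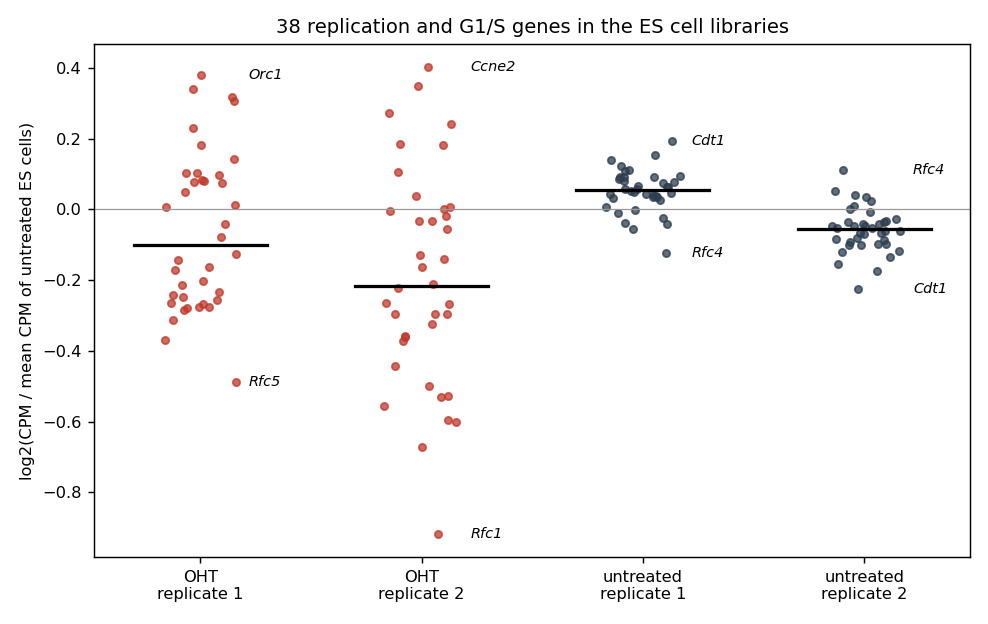
Log2 ratio of each of the 38 genes (points) in each ES cell library to its mean in untreated ES cells, with medians as bars and the lowest and highest gene named. The OHT-treated libraries, on the left, have medians of -0.10 and -0.22 and spread wider than the untreated libraries.

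The 2 OHT-treated ES cell libraries did not behave alike. In replicate 2, 28 of the 38 genes were below replicate 1 (73.7%), against 50.3% of all genes. The median difference was -0.13 in log2(CPM + 1), where the median over all genes was -0.00. None of the 38 differed by 2-fold, against 3.7% of all genes that averaged at least 1 CPM, and 4 differed by at least 1.5-fold, all lower in replicate 2. The lowest were Mcm6 (-0.75), Cdt1 (-0.74), Rfc1 (-0.66) and Mcm2 (-0.60), and the highest was Rfc5 (0.45). In the untreated pair, 31 of the 38 were lower in replicate 2 (81.6%), against 51.6% of all genes. The median there was -0.11, with extremes of -0.42 for Cdt1 and 0.23 for Rfc4. The same OHT-treated libraries also differed in Trp53 and Cdkn1a, as given above, and their part in these differences was not tested.

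The OHT calls in ES cells rested on which OHT-treated library was kept. Without OHT-treated replicate 1, 15 of the 38 genes were called, 2 higher and 13 lower, where 40.2% of all genes were called, and the median was -0.21. Without OHT-treated replicate 2, 6 were called, 4 higher and 2 lower, where 28.7% of all genes were called, and the median was -0.06. Orc1 was called higher and Mcm7 lower in both. In each of these fits the lone OHT-treated library was assumed to vary like the untreated pair, which was the closer of the 2 pairs.

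In FLICs, OHT was compared in 1 library against 1, so the difference has no replicate check of its own and is given as a description, without a test. None of the 38 genes differed by 2-fold in log2(CPM + 1), where 0.526% of the 11789 genes that averaged at least 1 CPM did, and none differed by 1.5-fold. The median difference was -0.08 over the set and 0.03 over all genes. With OHT, 32 of the 38 genes were lower (84.2%), against 43.6% of all genes. Between the untreated ES cell libraries, 81.6% of the set was lower in replicate 2, with a median of -0.11, so a shift of this size also lay between replicates. The lowest was Cdc7, at -0.48, followed by Pold1 (-0.28), Gins2 (-0.26), Mcm5 (-0.24), Prim1 (-0.22) and Ccne1 (-0.22), and the highest was Rfc4, at 0.12. Apart from Cdc7, all of these lay within the range between the 2 untreated ES cell libraries. Cell type markers differed between the same 2 FLICs libraries. The fibroblast markers summed to 12014 CPM with OHT and 8692 CPM without, and all 9 that averaged at least 1 CPM were higher with OHT (median 0.47). The pluripotency markers summed to 97.6 CPM with OHT and 152 CPM without, with 5 of 6 lower (median -0.60), and the trophoblast markers to 48.9 CPM with OHT and 26.1 CPM without, with 4 of 4 higher (median 0.58). Their part in the shift of the set was not tested.

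**Figure D5:**
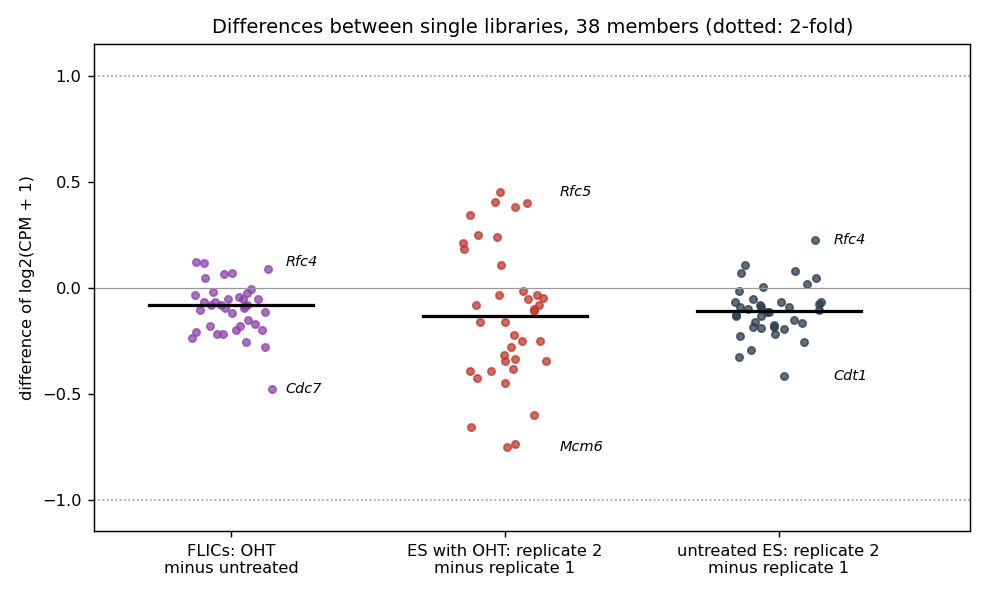
Differences in log2(CPM + 1) of the 38 genes between single libraries, with medians as bars and dotted lines at 2-fold. OHT minus untreated FLICs (left) spans -0.48 to 0.12, replicate 2 minus replicate 1 of OHT-treated ES cells (middle) -0.75 to 0.45, and the same for untreated ES cells (right) -0.42 to 0.23.

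Whether the OHT response differed between FLICs and ES cells was tested as an interaction. It includes the FLICs difference of 1 library against 1, with the spread taken from the ES cell pairs alone. A lack of calls therefore does not show that the responses were alike. edgeR called 0 of the 38 genes and 0 of the 15535 tested (0%), DESeq2 called 0 of the 38, and 0 of the 38 had an unadjusted p under 0.05, against 6.8% of all genes. The median of the difference, FLICs minus ES cells, was 0.03 over the set and 0.07 over all genes. Even the two-cell-like markers, nearly absent in FLICs, were not called, at a median of -4.37. The largest was Rfc1, at 0.64 with an interval of -0.38 to 1.66, and Orc1 was at -0.55 with an interval of -1.10 to 0.00. Cdc7, Ccne1 and Gins2 were at -0.41, -0.41 and -0.39, and Mcm7 at 0.36, each with an interval spanning 0. Without OHT-treated ES cell replicate 1, 6 genes were called (Cdt1, Mcm6 and Rfc1 higher, Ccne2, Cdc7 and Orc1 lower), where 18.3% of all genes were called. Without replicate 2, 2 were called lower (Ccne1 and Orc1), where 13.4% of all genes were called. Orc1 was the gene called in both.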

How the data were processed

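The submitters deposited 1 table of whole-number counts per gene for all 6 libraries, with a gene length for each row. Libraries were made from total RNA with a stranded kit, per the labels' protocols. Salmon, DESeq2 and the build GRCm38 are named in the submitters' processing notes, but their role, and whether counting used strand, was not given in the sources used here. For 10 of the 38 genes, exons overlap a gene of the table on the opposite strand, so their counts are less certain. The 10 are Ccne2, Cdc45, Fen1, Gins2, Lig1, Mcm7, Orc6, Rfc2, Rfc4 and Rfc5. Overlapping neighbours are given above only for Ccne2, Lig1 and Rfc5, and their effect on the counts was not tested. Rows were paired with GENCODE M21 symbols and positions by Ensembl ID.

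Counts were scaled by TMM, and genes were filtered with filterByExpr. The model was edgeR 4.0.16 in R 4.3.3 (glmQLFit, 1 mean per group, 2 residual degrees of freedom), with Benjamini-Hochberg adjustment over 15535 genes. Intervals are 95% intervals of the fit. CPM uses TMM-scaled library sizes, and TPM uses the deposited gene length, which is a multiple of 3 for 77.6% of genes and so mostly a coding length. Single libraries were compared as log2(CPM + 1). The fit was tested on simulated data. Alternatives were RLE scaling, no filter, at least 5 CPM in 2 libraries, DESeq2 1.42.0, a replicate block, ES cell libraries only, and leaving out each ES cell library. Counting sets the precision only partly, since the spread between libraries was larger: replicates of a group differed beyond sampling noise.

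A gene is given in every library when it was among the 6 largest changes of the set in a comparison or the largest of its role group in FLICs against ES cells without OHT, or was called for OHT in ES cells or for the OHT response difference. Other genes named in the text illustrate their role group or a count and were chosen after values were seen. Of other lists, up to 3 called genes per direction were eligible. The set, the lists and the tests were chosen with earlier results of these data known.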

Additional observations from a re-analysis of the deposited data

How the results depend on the processing

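No gene of the set was called for OHT in ES cells, or for the OHT response difference, under RLE scaling, either filter, DESeq2, the replicate block, the fit to ES cell libraries alone or the fits without 1 untreated ES cell library. With 1 library left out at a time, the number called ranged from 0 to 15 for OHT in ES cells and from 0 to 6 for the response difference, and the medians ranged from -0.21 to -0.064 and from -0.063 to 0.12. Between FLICs and ES cells, 8 to 27 genes were called without OHT and 11 to 25 with it (median with OHT -0.37 to -0.21). Fewer calls came when an untreated library was left out and more when an OHT-treated one was, and the OHT-treated pair had the wider spread (biological coefficient of variation 26.5%, against 7.65% for the untreated pair). Filtering at 5 CPM in 2 libraries moved the median with OHT to -0.46. At 1.5-fold in place of 2-fold, 4 genes differed between the OHT-treated ES cell libraries. Of the genes given in every library, the direction reversed for Cdc7 without OHT under the replicate block (0.028) and for Prim1 with OHT without OHT-treated replicate 1 (-0.011, up to 0.217 over the libraries left out). The cause was not tested, and neither of these 2 values was called. Same-numbered ES cell libraries deviated together (r = 0.44 across 15535 genes), but there are only 2 pairs and the labels do not say what a number marks. With the replicate block, 0 genes were called for OHT in ES cells, 22 for FLICs against ES cells without OHT, 22 with OHT and 0 for the response difference. With 1 library per FLICs group, the change with OHT within FLICs was left as a description and not tested.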
